A study of Mus musculus with 16 samples.

Results

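The genes described here are 38 mouse genes of innate immune sensing and the interferon response, chosen by name. They are 4 nucleic acid sensors, 4 Toll-like receptors, 4 adaptors and kinases, 6 transcription factors, 18 effectors and 2 chemokines. By RefSeq accession, 36 of them matched 45 probes of the array, and no probe matched Mx1 or Mx2. Testing required a signal that stood well above background on 4 or more of 16 arrays, which 27 of the 38 genes met, among 12579 tested genes in all.

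The cells were E14, a mouse embryonic stem (ES) cell line, kept undifferentiated in serum with the cytokine LIF. All 4 groups received plasmid DNA with a Lipofectamine reagent, were sorted for eGFP fluorescence 24 h later, plated again and harvested at 48 h, and polyadenylated RNA was labelled for single-colour Agilent arrays. EGFP cells received a plasmid for the fluorescent protein. The other plasmids coded for a TALE (an engineered protein that binds a chosen DNA sequence) for Ptn, the gene of the growth factor pleiotrophin. Ptn_VP64 added VP64, a viral-type activation domain, to this TALE, and Ptn_DEL added DEL, an acidic peptide known for decondensing chromatin. What Ptn_Delta adds is not given in the labels. Each group had 4 arrays, given as 2 biological and 2 technical replicates without saying which arrays repeat a culture, so p-values may partly measure technical spread. Because every group was transfected and sorted, the comparisons cannot show what transfection itself did to these genes, and untransfected cells were not analysed here.

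The arrays lay on 2 slides, replicates 1 and 2 on slide 1 and replicates 3 and 4 on slide 2, and each construct kept its own column on both slides, so slide column and construct cannot be told apart. The share of spots well above background was 27.1 to 43.8% per array. Broad bright or dim patches covered 13.1 to 35.6% of spots on slide 1 and on EGFP replicate 3, and 0.641 to 8.99% on the other slide 2 arrays. Values below are log2 levels, the log2 of the spot signal minus that of the array's 75th percentile. A patch-corrected level also has the local shift of its neighbourhood subtracted, and spots in strong patches are left out. Of 10 ES cell markers, 4 to 10 were well above background on each array, with Pou5f1 on all 16. Each of the 10 was so on every array where it was read, from 9 arrays for Nanog to 16 for Pou5f1. The lower counts come from spots marked uneven or as outliers, which were not read. Of 9 macrophage markers 0 to 3 were well above background per array. Itgam was on all 14 arrays read, Cd14 on 5, Csf1r on 4 and Aif1 on 1, and Ptprc, Lyz2, Adgre1, Fcgr1 and Tyrobp were on none. The targeted gene Ptn read 2.83, 3.10 and 3.96 on Ptn_VP64 replicates 2 to 4 and -5.23 to 0.87 on the other arrays. Its difference from EGFP was 4.87 ± 1.04 (SE) in the planned limma test, with an adjusted p of 0.667. In the unaveraged patch-corrected limma fit described below it was 4.37 ± 0.835, with an adjusted p of 0.0283. Differences given for the planned test come from the pairing of arrays with the largest p. They can therefore depart from the differences of the group means.

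Cells recognise foreign nucleic acid through cytosolic helicases that signal over Mavs and through Toll-like receptors that signal over Myd88 or a related adaptor. Both routes activate kinases such as Tbk1 and then interferon regulatory factors, which switch on interferons. Secreted interferon acts through transcription factors that include Stat2 and Irf9 on a response element in the promoters of antiviral genes. Pluripotent stem cells are known for a weak interferon response, and they rely more on a constitutive set of antiviral genes.

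The response element was looked for in the promoters of these genes to set the sequence beside the array signal. The core, which reads GAAA, any 2 bases, GAAA, lay in either orientation within 250 bases before to 50 bases after the start in 13 of the 30 genes that had a promoter in the RefSeq table (GRCm38.p6). It lay in 3.44% of all 32851 promoters in that table. A listed gene counts when any of its promoters holds the core, whereas this share counts single promoters, so the 2 are not in the same unit. Of the 13, 7 belonged to the 14 genes with a promoter that were read well above background on at least 12 arrays, 3 to the 10 read on 1 to 11 arrays, and 3 to the 6 read on none. Genes with the same core thus ranged from a signal on every array read to none. The following stretches upstream of the start show it in capitals, as written or as its reverse complement (TTTC, any 2 bases, TTTC), first in 3 genes read on none.
Ifit1, chr19:34640745-34640853, plus strand: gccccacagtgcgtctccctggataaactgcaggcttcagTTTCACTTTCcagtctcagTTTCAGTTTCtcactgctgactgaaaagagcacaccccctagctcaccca
Ifit3, chr19:34583333-34583456, plus strand: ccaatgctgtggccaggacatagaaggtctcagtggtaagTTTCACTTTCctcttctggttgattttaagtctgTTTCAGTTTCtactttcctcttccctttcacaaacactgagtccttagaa
Rsad2, chr12:26456523-26456612, minus strand: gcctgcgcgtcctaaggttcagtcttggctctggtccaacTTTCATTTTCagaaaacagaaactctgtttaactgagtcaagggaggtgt
The next 2 genes were read on 9 and 6 arrays. In Isg15 3 cores overlap.
Isg15, chr4:156200835-156200936, minus strand: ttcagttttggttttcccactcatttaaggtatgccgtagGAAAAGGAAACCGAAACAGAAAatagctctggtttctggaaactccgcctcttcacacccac
Cxcl10, chr5:92349053-92349139, minus strand: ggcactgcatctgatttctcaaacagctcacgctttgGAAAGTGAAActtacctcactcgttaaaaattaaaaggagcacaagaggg
The last 3 were read on at least 12 arrays. Oas1a and Bst2 each hold 2 overlapping cores.
Gbp2, chr3:142620564-142620653, plus strand: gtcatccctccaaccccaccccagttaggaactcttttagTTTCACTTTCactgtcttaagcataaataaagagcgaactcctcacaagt
Oas1a, chr5:120907526-120907585, minus strand: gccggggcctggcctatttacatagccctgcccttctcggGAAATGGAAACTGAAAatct
Bst2, chr8:71537547-71537642, minus strand: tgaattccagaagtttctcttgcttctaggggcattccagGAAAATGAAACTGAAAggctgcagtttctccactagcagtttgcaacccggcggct
The gamma-activated core TTCNNNGAA, known from genes that interferon gamma induces, lay in 9 of the 30 genes and in 8.3% of all promoters, counted in the same unlike units. None of the 6 genes without a signal on any array held it. Motif matches are descriptions of letters in this window and do not show binding.

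All 4 adaptors and kinases were well above background on at least 12 arrays, and several classical antiviral effectors were on none. Of the 36 genes with a probe, 15 (41.7%) were well above background on at least 12 arrays, 13 on 1 to 11 arrays and 8 (22.2%) on none. The same shares among all 20972 genes with a probe were 35.1 and 29.4%. An array whose spots for a gene were marked uneven or as outliers, and so not read, counts as without a signal in these classes. Irf1, on 11 of 12 arrays read, and Irf3, on 8 of 11, therefore fall in the class of 1 to 11 arrays. In the first class were 4 of 4 adaptors and kinases, 1 of 4 sensors, 1 of 4 Toll-like receptors, 2 of 6 factors, 7 of 16 effectors and 0 of 2 chemokines. All adaptors and kinases (Mavs, Myd88, Tbk1 and Trim25) were among them, beside the sensor Ddx58, the receptor Tlr2, the factors Stat2 and Irf9, and 7 effectors (Oas1a, Oas2, Bst2, Ifi35, Gbp2, Eif2ak2 and Sp110).
The 8 genes without a signal on any array were Ifit1, Ifit3, Oasl1, Usp18 and Rsad2, which are classical interferon-induced effectors, with the chemokine Ccl5, the double-stranded RNA receptor Tlr3, and Irf7, the factor that amplifies interferon production. On 7 of the 16 arrays 4 to 7 of these 8 shared the same value to 2 decimals, as at a floor, so differences among such values carry no order. When spots marked uneven or as outliers were counted, 4 of the 8 remained without a signal on any array.

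**Figure D1:**
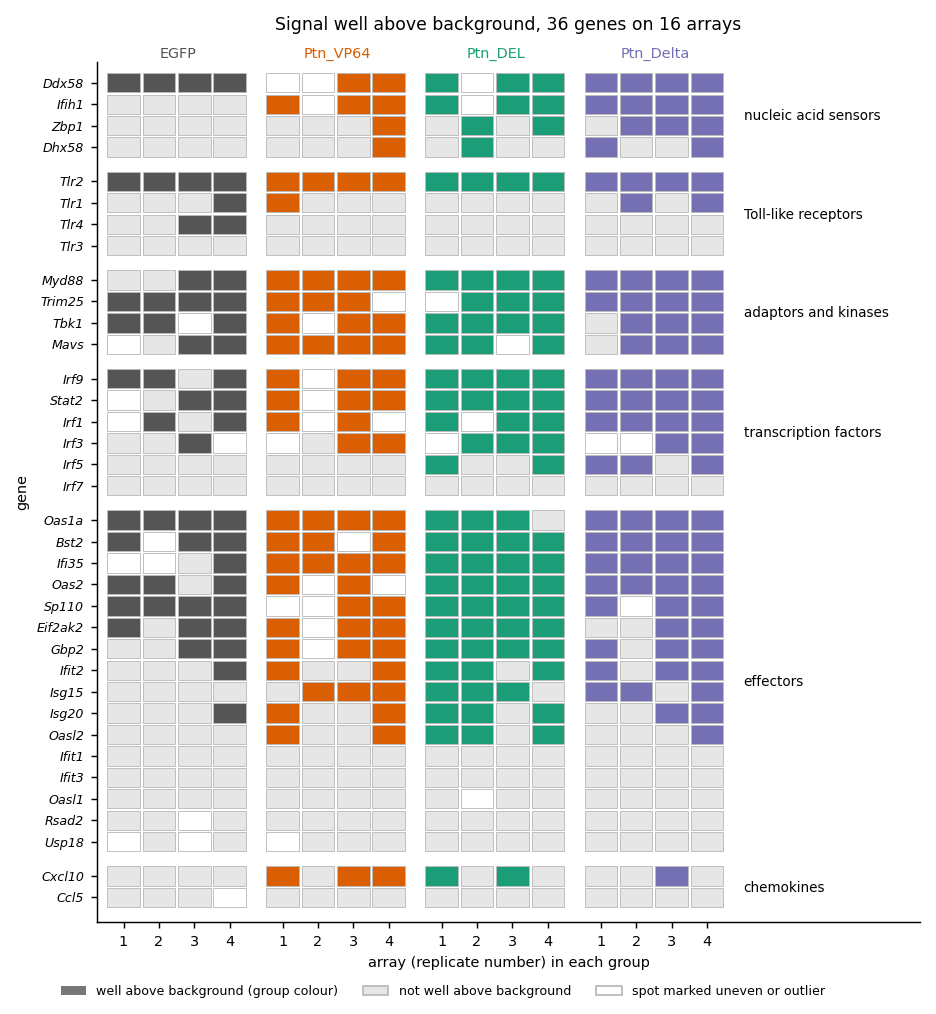
Each row is a gene with a probe, grouped by role, and each column an array; coloured cells were well above background, grey cells were not and white cells held a spot marked uneven or as an outlier. The 4 adaptors and kinases are filled on most arrays, and 8 rows have no coloured cell.

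Detection differed between arrays before any gene was compared. From 9 to 20 of these genes were well above background on the EGFP arrays and from 8 to 26 on the TALE arrays, while all genes with a probe read there gave 31 to 51.4% and 34 to 56.4%. Without a signal on any EGFP array but with 1 on at least 4 TALE arrays were 7 of the 36 genes, against 4.69% of all genes: Cxcl10, Dhx58, Ifih1, Irf5, Isg15, Oasl2 and Zbp1. This pattern was counted after the values were seen, and the lower detection of the EGFP arrays moved with it. What part that had was not tested. Ifih1, which codes for MDA5, a sensor of long double-stranded RNA, was well above background on none of 4 EGFP arrays and on all 10 TALE arrays read, as were 0.0477% of all genes. Its levels overlapped, from -4.29 to -1.60 on EGFP and from -3.28 to -1.44 on TALE arrays. A second Ifih1 probe was well above background on none of 16 arrays, so the probes disagree. The second probes of Irf1 and Isg20 were also on none, and those of Isg15 and Zbp1 on 1 and 2 arrays.

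Of the cytosolic sensors, Ddx58 gave a signal on every array read. It codes for RIG-I, the sensor of short RNA with a free 5′ triphosphate. It read 0.05, 1.51, 0.48 and 2.55 on EGFP and 2.28 and 2.11 in replicates 3 and 4 on Ptn_VP64. On Ptn_DEL it read 3.11, 2.04 and 2.65 in replicates 1, 3 and 4, and on Ptn_Delta 3.40, 5.25, 2.47 and 3.03. The Ptn_Delta arrays stood mostly above EGFP, but EGFP replicate 4 reached above Ptn_Delta replicate 3. The difference of Ptn_Delta from EGFP was 2.39 ± 0.76 (SE) with an adjusted p of 0.976 (limma, planned test), and it was 0.12 ± 0.30 after patch correction. The patch-corrected values of Ddx58 lay between 1.94 and 2.83 on all 10 arrays left. A second Ddx58 probe was well above background on 14 of 16 arrays, among them 2 EGFP arrays. Its group means were -1.97 on EGFP, -1.31 on Ptn_VP64, -1.82 on Ptn_DEL and -1.62 on Ptn_Delta, so the probes disagree on the highest group.
Dhx58, the regulator LGP2, was well above background on 4 arrays and ranged from -4.01 to -1.68 over all 16. Zbp1, a sensor of Z-form nucleic acid, was read on 6 arrays: -2.91, -2.57, -3.51 and -3.28 on EGFP and -4.70, -3.40, -4.37 and -2.79 on Ptn_VP64. It read -2.60, -3.52, -2.94 and -2.02 on Ptn_DEL and -2.56, -2.95, -2.29 and -2.14 on Ptn_Delta. The Ptn_Delta values lay closest together and Ptn_VP64 reached lowest, with overlap among all groups. Ptn_VP64 minus Ptn_DEL was -1.04 ± 0.62 (adjusted p of 1, limma).

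Among the Toll-like receptors, Tlr2, which recognises bacterial lipoproteins with Tlr1 or a relative, was the only 1 of the 4 with a signal on all 16 arrays. Its probe was printed on 10 spots of every array, so that its error could be seen within an array. On slide 2 the SD among its spots was 0.11 to 1.05 with a median of 0.21, and on slide 1 it was 0.67 to 2.30 with a median of 1.51. The spread among identical spots on slide 1 was thus as large as most differences between groups. The medians of the spots on slide 2 were -0.59 and -1.0 on EGFP, -0.96 and -0.67 on Ptn_VP64, -0.31 and -0.41 on Ptn_DEL and -0.31 and -0.30 on Ptn_Delta. They were higher on all 4 Ptn_DEL and Ptn_Delta arrays than on the 4 others of that slide. The mean of the spots over both slides read -0.88, -0.23, -0.97 and -1.04 on EGFP, -0.49, -1.43, -1.03 and -0.68 on Ptn_VP64, -0.82, -0.79, -0.25 and -0.45 on Ptn_DEL and -0.79, -1.26, -0.28 and -0.30 on Ptn_Delta. The groups overlapped there, and Tlr2 was called in no comparison under any setting tried.
Tlr4, the lipopolysaccharide receptor, was well above background on EGFP replicates 3 and 4 through 1 of its 2 spots, and on no other array. Tlr1 was on 4 arrays and ranged from -4.36 to -0.37. Tlr3, the endosomal receptor of double-stranded RNA, was on none.

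**Figure D2:**
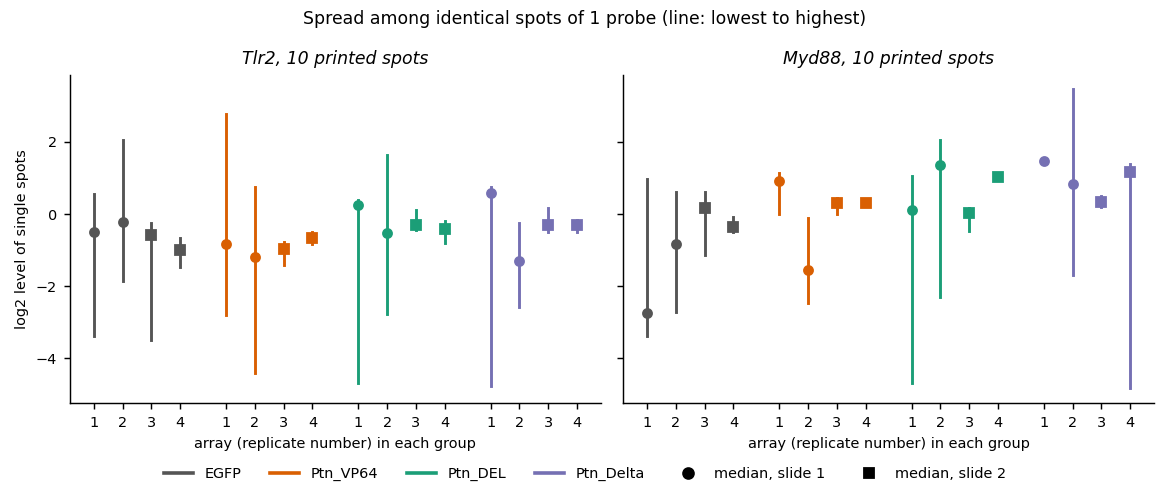
The log2 level of the spots of the Tlr2 and Myd88 probes is shown on each array, with the median as a point (circles slide 1, squares slide 2) and a line from the lowest to the highest unmarked spot. Lines are long on slide 1, where Tlr2 spots reach from -4.76 to 0.75 on Ptn_Delta replicate 1, and short on most slide 2 arrays.

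The adaptors and kinases carry the signal from sensors to transcription factors. Myd88, the adaptor of most Toll-like receptors, was also printed on 10 spots. Its mean read -2.19, -0.85, 0.03 and -0.33 on EGFP and 0.69, -1.55, 0.26 and 0.32 on Ptn_VP64. It read -1.34, 0.27, -0.01 and 1.04 on Ptn_DEL and 1.47, 1.01, 0.35 and -0.64 on Ptn_Delta. All groups overlapped, and the SD among spots had a median of 1.31 on slide 1 and 0.14 on slide 2.
Mavs, the mitochondrial adaptor of RIG-I and MDA5, read -1.55, -0.03 and 0.17 in replicates 2, 3 and 4 on EGFP and 0.16, 1.56, 0.19 and 0.78 on Ptn_VP64. On Ptn_DEL it read 0.86, -0.18 and -0.62 in replicates 1, 2 and 4, and on Ptn_Delta -4.76, -0.66, 0.32 and -1.28. All Ptn_VP64 values were above 0, and the lowest value of Ptn_Delta lay in a patch. Ptn_VP64 minus Ptn_Delta was 2.27 ± 0.90 (adjusted p of 1, limma) and 0.82 after patch correction. Ptn_DEL minus Ptn_Delta was 1.45, from 3.05 on slide 1 and -0.14 on slide 2.
Tbk1, the kinase that phosphorylates Irf3, read 2.31, 2.51 and 0.99 in replicates 1, 2 and 4 on EGFP and 1.28, -0.07 and 1.32 in replicates 1, 3 and 4 on Ptn_VP64. It read 2.33, 1.69, 1.35 and 2.14 on Ptn_DEL and -3.68, -0.76, 1.46 and 2.23 on Ptn_Delta. The Ptn_DEL values lay within 1 log2 unit, whereas those of Ptn_Delta spanned almost 6. Ptn_DEL minus Ptn_Delta was 2.07 ± 1.27 (adjusted p of 1, limma), from 4.23 on slide 1 and -0.10 on slide 2, and it was -0.0002 after patch correction.
Trim25, a ubiquitin ligase that activates RIG-I, read 5.35, 1.95, 4.83 and 3.42 on EGFP and 1.08, 1.00 and 4.04 in replicates 1, 2 and 3 on Ptn_VP64. On Ptn_DEL it read 2.67, 3.97 and 4.85 in replicates 2, 3 and 4, and on Ptn_Delta -0.84, 3.18, 4.01 and 5.18. Every array read gave a signal, and the groups overlapped.

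The transcription factors of the pathway differed in detection. Stat2 and Irf9, which act on the response element, were well above background on 13 of 14 and 14 of 15 arrays read. Irf1 was on 11 of 12 read, Irf3 on 8 of 11, Irf5 on 5 of 16 and Irf7 on none of 16. Stat2 read -0.27, 0.78 and 0.37 in replicates 2, 3 and 4 on EGFP and 0.82, 0.92 and 0.87 in replicates 1, 3 and 4 on Ptn_VP64. It read 1.99, 1.35, 1.15 and 0.93 on Ptn_DEL and 2.30, 1.03, -1.95 and 1.05 on Ptn_Delta. All Ptn_VP64 and Ptn_DEL values were above those of EGFP, and Ptn_Delta replicate 3 was the lowest of all. After patch correction the groups overlapped, with EGFP replicate 3 at 1.41, and the differences from EGFP went from 0.57 to 0.16 for Ptn_VP64 and from 1.04 to 0.23 for Ptn_DEL.
Irf9 read 1.29, -0.30, -4.29 and 0.26 on EGFP and -1.77, 0.48 and 0.75 in replicates 1, 3 and 4 on Ptn_VP64. It read 1.00, 0.44, 0.30 and 0.49 on Ptn_DEL and 1.57, -0.21, 0.28 and 0.34 on Ptn_Delta. EGFP replicate 3 stood far below the rest and lay in a patch.
Irf1, a factor that interferon gamma is known to induce, read 1.23, -3.53 and 2.18 in replicates 2, 3 and 4 on EGFP and 3.00 and 2.57 in replicates 1 and 3 on Ptn_VP64. It read 3.65, 3.05 and 3.28 in replicates 1, 3 and 4 on Ptn_DEL and 4.15, 2.66, 3.11 and 3.38 on Ptn_Delta. Every TALE array read was above every EGFP array read, and the share of all genes with this pattern was not counted. The group means were -0.04 on EGFP, 2.79 on Ptn_VP64, 3.33 on Ptn_DEL and 3.32 on Ptn_Delta. In the pairing with the largest p, the differences from EGFP were larger than those of the means. They were 3.70 ± 1.77 for Ptn_VP64, 4.23 ± 1.44 for Ptn_DEL and 4.24 ± 1.44 for Ptn_Delta, with adjusted p of 1, 1 and 0.976 (limma). These comparisons share the EGFP arrays, of which replicate 3 lay in a patch. After patch correction, which left 2 EGFP arrays, they were 0.65, 0.93 and 0.93, and no TALE value was below the higher EGFP value of 2.48.

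Irf5, a factor downstream of Myd88, was lower on the Ptn_VP64 arrays than on Ptn_DEL and Ptn_Delta. It read -3.37, -2.81, -2.46 and -3.09 on EGFP and -4.05, -3.82, -4.20 and -3.35 on Ptn_VP64. It read -1.72, -2.77, -2.47 and -1.92 on Ptn_DEL and -2.03, -2.68, -2.60 and -1.45 on Ptn_Delta. No EGFP or Ptn_VP64 array was well above background, so only a rough bound is given against Ptn_VP64. Of the Ptn_DEL and Ptn_Delta arrays, 2 of 4 and 3 of 4 were well above background. By this bound the level was 2.10-fold higher on Ptn_Delta, with group means of -2.19 and -3.85. It was 2.06-fold higher on Ptn_DEL, with a mean of -2.22 (adjusted p of 1 in both, limma, planned test). For Ptn_VP64 against EGFP, both not well above background, no fold is given. Such a bound sets the mean of the brighter group against the lowest signal that counted as well above background on each dim array, or the dim value itself where that was higher. That lowest signal was -4.10 on Ptn_VP64 replicate 1 and -7.64 on replicate 2. A spot could lack a signal at a far higher level, as Irf3 did at 0.76 on EGFP replicate 2. The bound is therefore rough, and the true difference may be smaller.

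**Figure D3:**
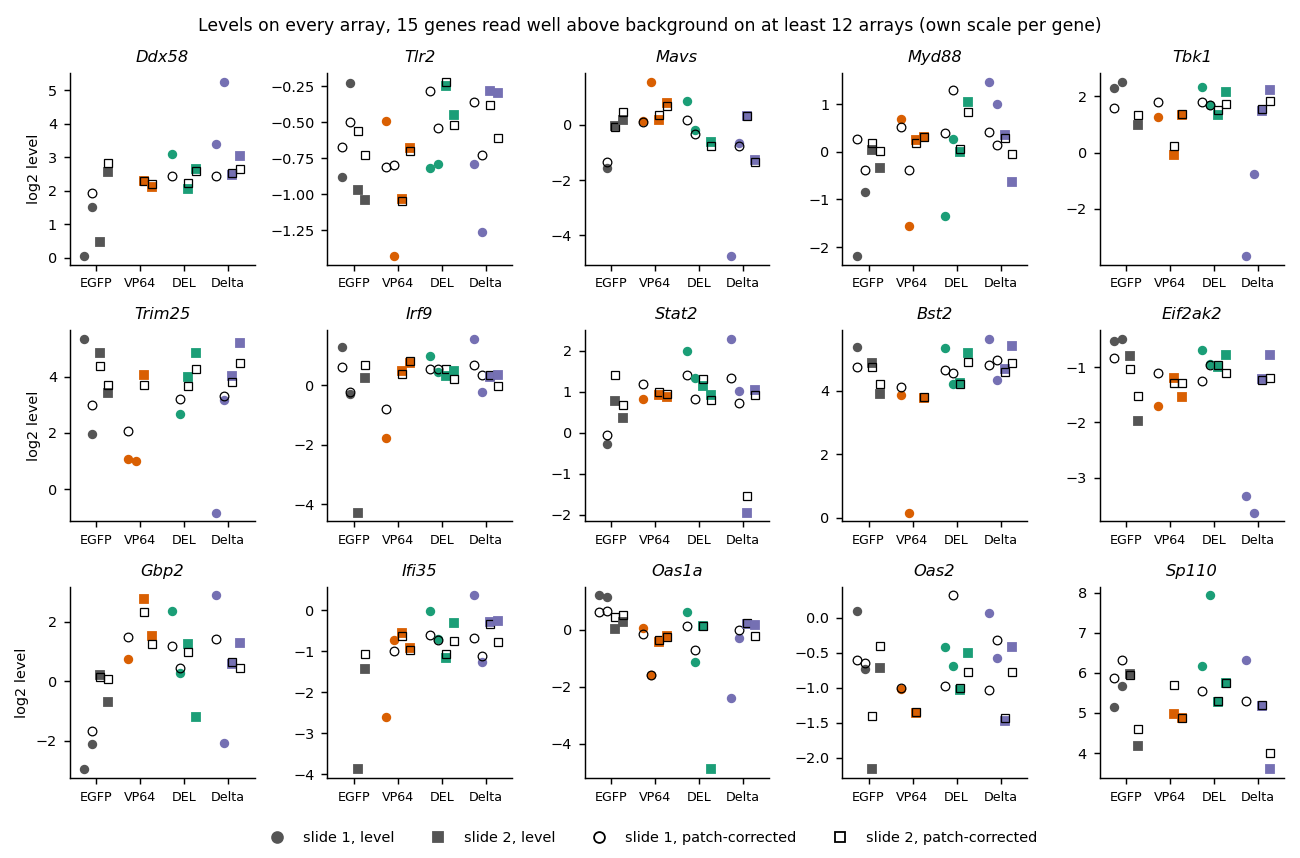
Filled points are the log2 levels of 15 genes on each array and open black points the patch-corrected levels, with circles for slide 1, squares for slide 2 and a scale of its own for each gene. Filled circles scatter widely, as for Tbk1 from -3.68 to 2.51, and most open points lie closer together.

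The effectors hold the interferon-stimulated antiviral genes. Bst2, or tetherin, which holds budding virus at the membrane, read 5.37, 4.87 and 3.90 in replicates 1, 3 and 4 on EGFP and 3.86, 0.15 and 3.79 in replicates 1, 2 and 4 on Ptn_VP64. On Ptn_DEL it read 5.36, 4.23, 4.26 and 5.21, and on Ptn_Delta 5.65, 4.35, 4.69 and 5.43. Every Ptn_VP64 value was below every value of the other groups. Of all genes with enough values, 0.869% had Ptn_VP64 wholly below or wholly above the other groups. Ptn_VP64 minus EGFP was -1.59 ± 0.75, minus Ptn_DEL -1.87 ± 0.76 and minus Ptn_Delta -2.13 ± 0.76, each with an adjusted p of 1 (limma). The group means were 4.71 on EGFP, 2.60 on Ptn_VP64, 4.76 on Ptn_DEL and 5.03 on Ptn_Delta. Ptn_VP64 replicate 2, at 0.15, was far below the others and lay in a patch. After patch correction the differences were -0.52, -0.63 and -0.86.
Gbp2, an interferon-induced GTPase that acts on vacuoles of pathogens, was higher on every Ptn_VP64 array than on every EGFP array. It read -2.97, -2.10, 0.20 and -0.71 on EGFP and 0.73, 2.78 and 1.52 in replicates 1, 3 and 4 on Ptn_VP64. It read 2.35, 0.28, 1.24 and -1.22 on Ptn_DEL and 2.89, -2.08, 0.59 and 1.30 on Ptn_Delta. Ptn_VP64 minus EGFP was 2.83 ± 0.89 (unadjusted p of 0.0161, adjusted p of 1, limma), from 3.26 on slide 1 and 2.40 on slide 2. Ptn_DEL minus EGFP was 2.06 ± 0.96 (adjusted p of 1), from 3.85 on slide 1 and 0.27 on slide 2. Gbp2 was well above background on 2 of 4 EGFP arrays, both on slide 2. The slide 1 differences therefore rest on EGFP values without a signal.
Ifi35, an interferon-induced leucine zipper protein, was read on 2 EGFP arrays, at -3.88 and -1.43. It read -2.59, -0.73, -0.54 and -0.91 on Ptn_VP64, -0.01, -0.69, -1.15 and -0.30 on Ptn_DEL and 0.37, -1.26, -0.28 and -0.27 on Ptn_Delta. All Ptn_DEL and Ptn_Delta values were above both EGFP values, by 2.24 ± 0.83 and 2.42 ± 0.83 (adjusted p of 1 and 0.976, limma). The EGFP value of -3.88, on replicate 3, lay in a patch with a local shift of -4.15, and without that array the differences were 0.90 and 1.08. Patch correction left 1 EGFP array, at -1.07, and so no test, and the corrected TALE values of -1.11 to -0.34 reached below it.
Eif2ak2 codes for PKR, the kinase that stops translation on binding double-stranded RNA. It read -0.52, -0.48, -0.80 and -1.97 on EGFP and -1.70, -1.20 and -1.54 in replicates 1, 3 and 4 on Ptn_VP64. It read -0.69, -0.94, -1.0 and -0.78 on Ptn_DEL and -3.33, -3.64, -1.22 and -0.77 on Ptn_Delta. Both slide 1 arrays of Ptn_Delta were lowest and lay in patches. Patch-corrected values of all groups lay between -1.52 and -0.84.
Oas1a and Oas2 make the oligoadenylate that activates RNase L. Oas1a read 1.22, 1.15, 0.05 and 0.28 on EGFP and 0.08, -1.60, -0.42 and -0.20 on Ptn_VP64. It read 0.62, -1.12, 0.15 and -4.91 on Ptn_DEL and -2.38, -0.30, 0.22 and 0.16 on Ptn_Delta. After patch correction all 4 EGFP values, from 0.47 to 0.67, were above every other array left. The share of all genes with this pattern was not counted. A second Oas1a probe ran the other way, with group means of -2.45 on EGFP and -1.24 on Ptn_DEL.
Oas2 read 0.10, -0.73, -2.17 and -0.72 on EGFP and -1.02 and -1.36 in replicates 1 and 3 on Ptn_VP64. It read -0.42, -0.69, -1.04 and -0.51 on Ptn_DEL and 0.06, -0.57, -1.48 and -0.42 on Ptn_Delta, and all groups overlapped.
Sp110, a nuclear body protein, read 5.16, 5.67, 5.97 and 4.17 on EGFP and 4.98 and 4.87 in replicates 3 and 4 on Ptn_VP64. It read 6.17, 7.94, 5.28 and 5.75 on Ptn_DEL and 6.32, 5.17 and 3.59 in replicates 1, 3 and 4 on Ptn_Delta, with overlap, and 2 arrays were saturated. Of its other probes, 1 had its highest group mean on Ptn_VP64, at -0.10, and the other on Ptn_Delta, at 0.33, so the probes disagree on the order of the groups. Genes of the Oas, Ifit, Gbp and Sp families have close copies, and whether their probes also bind these was not tested.

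The less steadily read effectors were Ifit2 (9 arrays), Isg15 (9), Isg20 (8) and Oasl2 (6), with the chemokine Cxcl10 (6). Isg15, the ubiquitin-like modifier, was well above background on no EGFP array and on 3 arrays of each TALE group. By the rough bound used for Irf5 it was 1.75-fold higher on Ptn_Delta than on EGFP, with means of -1.12 and -2.39 (adjusted p of 0.976, limma). On Ptn_VP64 it was 1.23-fold higher, with a mean of -1.63 (adjusted p of 1). For Ptn_DEL the bound did not reach 1. The Ptn_Delta mean holds replicate 1 at 0.05, where the local shift was 1.36, and the other Ptn_Delta arrays read -1.65 to -1.42. After patch correction the difference from EGFP was -0.09 for Ptn_Delta and 0.003 for Ptn_VP64, so the higher level did not remain. Cxcl10, a chemokine that draws T cells, was well above background on 3 Ptn_VP64, 2 Ptn_DEL and 1 Ptn_Delta arrays and on no EGFP array. By the same rough bound it was 1.03-fold higher on Ptn_VP64 than on EGFP, with means of -2.26 and -3.68 (adjusted p of 1). Ifit2, an RNA-binding inhibitor of translation, ranged from -3.87 to -1.52 over all arrays.

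No gene of the group was called in any of the 6 comparisons by the planned test, which did not call Ptn either. The planned test averaged arrays in pairs, so that each group had 2 values in each of the 3 ways to pair them, fitted limma, kept the largest p of each gene with the difference and SE of that pairing, and adjusted the p by Benjamini-Hochberg over all genes tested. At an adjusted p under 0.05 it called 0 of the 27 tested members and 0% of all genes in every comparison, and also in the F test across the 4 groups. An unadjusted p under 0.05 was reached by 1 member for Ptn_VP64 against EGFP, 2 for Ptn_DEL against EGFP, 3 for Ptn_Delta against EGFP, 3 for Ptn_VP64 against Ptn_Delta, 2 for Ptn_VP64 against Ptn_DEL and none for Ptn_DEL against Ptn_Delta. The corresponding shares of all genes were 3.88, 2.7, 3.99, 2.94, 1.82 and 0.621%.
The median difference of the members from EGFP was 0.15 for Ptn_VP64, 0.41 for Ptn_DEL and 0.20 for Ptn_Delta, beside 0.08, 0.19 and 0.19 over all genes. Of the 27, 16, 21 and 20 were higher than EGFP, and of all genes 56.2, 64.2 and 62.2%. After patch correction the members' medians were -0.07, 0.02 and -0.04 and those of all genes 0.01, 0.03 and 0.02.
Groups that did not overlap were found for 3 of 22 members between Ptn_VP64 and EGFP (Stat2, Bst2 and Gbp2), against 8.27% of all genes with at least 3 values in each group. They were found for 2 of 26 between Ptn_DEL and EGFP (Irf1 and Stat2; 5.7% of genes), and for 2 of 25 between Ptn_Delta and EGFP (Isg15 and Irf1; 6.18%). Between the TALE groups they were found for 2 of 22 for Ptn_VP64 and Ptn_Delta (7.22%), 5 of 23 for Ptn_VP64 and Ptn_DEL (6.46%) and 0 of 26 for Ptn_DEL and Ptn_Delta (1.25%). The 5 were Irf5, Stat2, Bst2, Tbk1 and Eif2ak2, and they were the largest such number among these comparisons.
On patch-corrected levels, groups did not overlap for 5 of 16 members between Ptn_VP64 and EGFP (Irf5, Oas1a, Oasl2, Gbp2 and Cxcl10), beside 16.9% of all genes with at least 3 values in each group. They did not for 4 of 19 between Ptn_DEL and EGFP (Oas1a, Oasl2, Gbp2 and Cxcl10; 7.19%) and for 2 of 17 between Ptn_Delta and EGFP (Oas1a and Gbp2; 8.59%). Between the TALE groups they did not for 1 of 15 (Irf5) for Ptn_VP64 and Ptn_Delta (17.1%), 3 of 18 (Irf5, Tlr2 and Gbp2) for Ptn_VP64 and Ptn_DEL (14.3%) and 1 of 20 (Sp110) for Ptn_DEL and Ptn_Delta (1.77%). Gbp2, Irf5, Oas1a, Oasl2 and Cxcl10 recur in these lists. The uncorrected lists also held Gbp2 and Irf5, beside Stat2, Bst2 and others. Stat2 overlapped between these groups after correction. Bst2 had only 2 patch-corrected values on Ptn_VP64, too few to be counted for that group. Both lay below every patch-corrected Bst2 value of the other groups. For Irf5, Oasl2 and Cxcl10 no EGFP array was well above background, and for Irf5 no Ptn_VP64 array was.

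**Figure D4:**
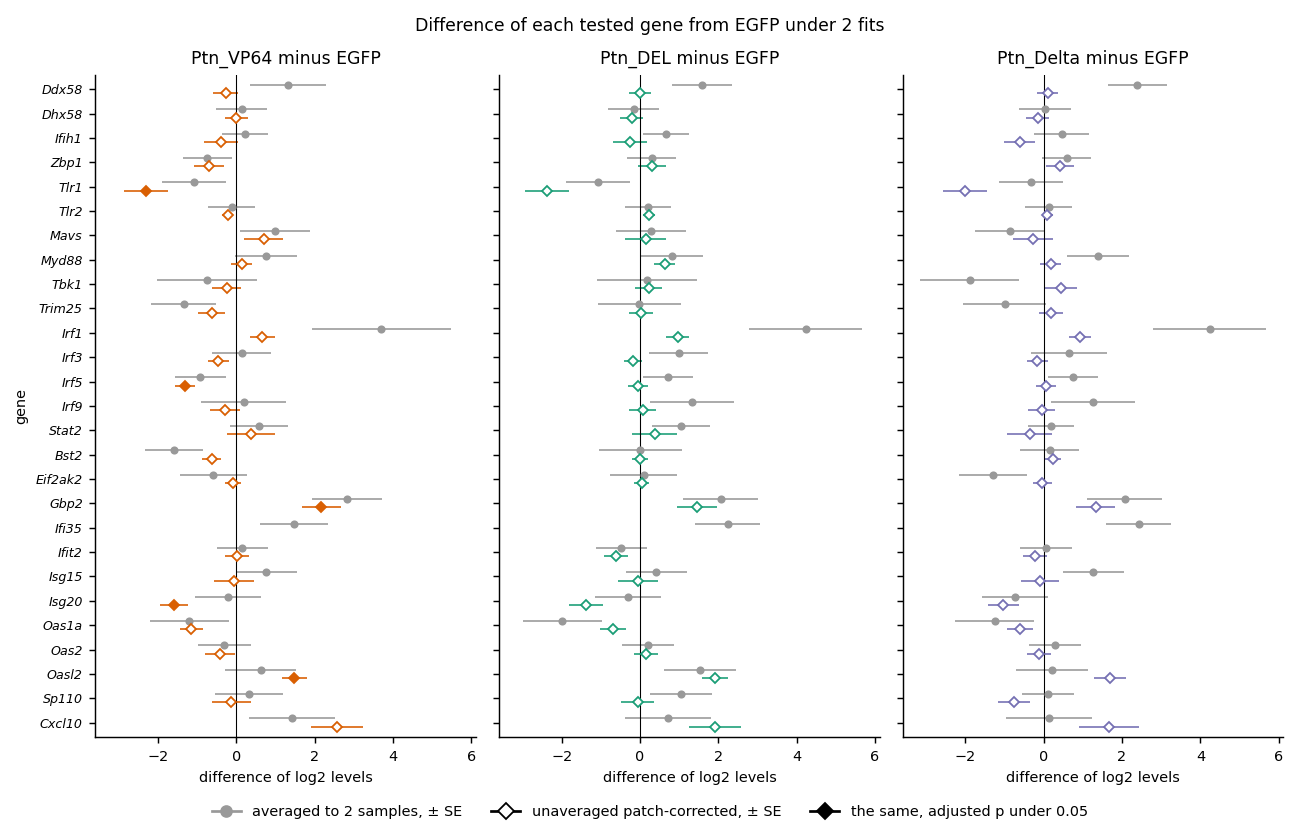
Differences of log2 levels from EGFP are shown for the 27 tested genes in the 3 TALE groups, as grey points from the planned pairings and as diamonds from the unaveraged patch-corrected fit, each ± SE, with filled diamonds at an adjusted p under 0.05. The grey intervals are wide, and the 5 filled diamonds are all in the Ptn_VP64 panel.

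When patch-corrected arrays were fitted without averaging, 5 members differed between Ptn_VP64 and EGFP. This fit has the slide as a term and treats the technical repeats as if they were separate cultures, which makes its p-values smaller than they should be. It called 3.4% of 11017 genes for Ptn_VP64 against EGFP, and 5 of the 26 members measured: Gbp2 and Oasl2 higher, and Irf5, Isg20 and Tlr1 lower. Irf5 was well above background on no array of either group and Oasl2 on no EGFP array, so for these the fitted values measure no fold. Isg20 was well above background on 1 EGFP and 2 Ptn_VP64 arrays, and Tlr1 on 1 of each. Most values behind their differences thus were not well above background either. The 5 are a GTPase, an oligoadenylate synthase-like protein, a transcription factor, an RNA exonuclease and a surface receptor. With patch correction and the planned averaging, or with patch correction on slide 2 alone, 0 members were called, the smallest adjusted p being 0.353 and 0.17, and 6 and 7 of the 26 had an unadjusted p under 0.05.
Gbp2 had patch-corrected values of -1.67, 0.13 and 0.08 in replicates 2, 3 and 4 on EGFP and 1.48, 2.33 and 1.25 in replicates 1, 3 and 4 on Ptn_VP64. It had 1.17, 0.45 and 0.97 in replicates 1, 2 and 3 on Ptn_DEL and 1.43, 0.65 and 0.44 in replicates 1, 3 and 4 on Ptn_Delta. All TALE values were above all EGFP values, and the share of all genes with this pattern was not counted. The EGFP value of -1.67, on replicate 2, was not well above background. The difference of Ptn_VP64 from EGFP was 2.17 ± 0.50 (adjusted p of 0.0464, limma, unaveraged), and it was 1.46 ± 0.51 for Ptn_DEL and 1.33 ± 0.50 for Ptn_Delta (adjusted p of 0.522 and 0.466).
Oasl2, a relative of the oligoadenylate synthases, had -4.10, -4.29 and -4.36 in replicates 1, 3 and 4 on EGFP and -3.08, -2.31, -3.60 and -2.02 on Ptn_VP64. It had -2.37, -2.32, -2.46 and -2.16 on Ptn_DEL and -2.64 and -2.53 in replicates 3 and 4 on Ptn_Delta. All 10 TALE values left were above the 3 EGFP values, a pattern whose share among all genes was not counted. The fitted difference was 1.48 ± 0.33 for Ptn_VP64 (adjusted p of 0.0368), 1.91 ± 0.33 for Ptn_DEL (0.0928) and 1.69 ± 0.40 for Ptn_Delta (0.216), all by limma. No EGFP array was well above background, so these are no measure of a fold, and the bound on uncorrected levels did not reach 1.
Irf5 had -2.17, -2.41 and -2.76 in replicates 2, 3 and 4 on EGFP, -3.61, -3.81, -4.31 and -3.33 on Ptn_VP64, -2.53, -2.71, -2.46 and -2.32 on Ptn_DEL and -2.34, -2.63, -2.66 and -1.95 on Ptn_Delta. The 4 Ptn_VP64 values were the lowest. Of the genes with enough values, 5.6% had Ptn_VP64 wholly below or wholly above the other groups. No Ptn_VP64 or EGFP array was well above background for Irf5, so the order of these values carries no measurement. No difference is therefore given between these 2 groups (adjusted p of 0.016, limma, unaveraged). Against Ptn_Delta and Ptn_DEL the adjusted p were 0.0237 and 0.0324. The only sizes given are the rough bounds of 2.10-fold and 2.06-fold above, on uncorrected levels. Irf5 was the only member called in the last pair of comparisons, beside 0.717 and 0.871% of all genes. It was also the only member called in the F test (adjusted p of 0.024; 1.26% of genes).
Isg20, a nuclease that degrades viral RNA, had -0.21, -2.24 and -0.51 in replicates 2, 3 and 4 on EGFP and -2.05, -2.11, -2.99 and -2.67 on Ptn_VP64, a difference of -1.59 ± 0.36 (adjusted p of 0.0464), and the groups overlapped. It had -2.01 and -2.47 in replicates 1 and 4 on Ptn_DEL and -1.69, -2.38 and -1.97 in replicates 2, 3 and 4 on Ptn_Delta. The EGFP values of replicates 2 and 3 were not well above background. On uncorrected levels the difference between Ptn_VP64 and EGFP was -0.22 in the planned fit.
Tlr1 had -1.89 and -0.12 in replicates 2 and 4 on EGFP, so 2 arrays decide the comparison, and -2.98, -3.10, -2.96 and -4.23 on Ptn_VP64. It had -3.10, -2.95, -4.36 and -3.13 on Ptn_DEL and -3.69, -2.62, -3.05 and -2.75 on Ptn_Delta. Ptn_VP64 minus EGFP was -2.31 ± 0.56 (adjusted p of 0.0472), and EGFP replicate 4, at -0.12, stood above all other arrays.
Cxcl10 missed the threshold between Ptn_VP64 and EGFP (adjusted p of 0.0806, limma). The rough bound of 1.03-fold above is the only size given, since no EGFP array was well above background. It had -3.56, -4.15 and -4.68 in replicates 1, 3 and 4 on EGFP and -1.57, -1.48 and -1.66 in replicates 1, 3 and 4 on Ptn_VP64. On Ptn_DEL it had -1.64, -1.44 and -3.53 in replicates 1, 3 and 4, and on Ptn_Delta -1.46 and -3.84 in replicates 3 and 4. In the same fit no member was called for Ptn_DEL or Ptn_Delta against EGFP, where 0.0726 and 0.0272% of genes were, or between Ptn_DEL and Ptn_Delta, where 0% were. There 7, 5 and 0 members had an unadjusted p under 0.05.

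**Figure D5:**
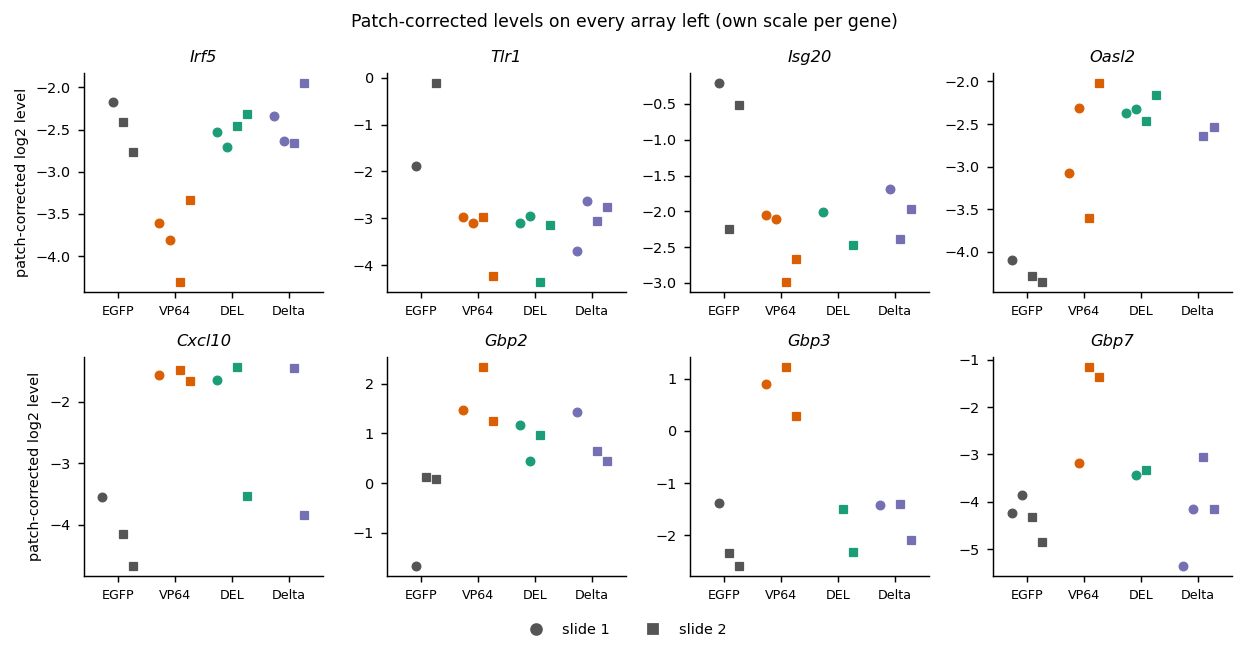
Patch-corrected log2 levels on each array left are shown for 6 members and for the related GTPase genes Gbp3 and Gbp7, with circles for slide 1, squares for slide 2 and a scale of its own for each gene. Points for Irf5 on EGFP and Ptn_VP64 and for Oasl2, Cxcl10, Gbp3 and Gbp7 on EGFP were not well above background. Isg20 and Tlr1 were well above background on 1 EGFP array each, and Gbp2 on EGFP replicates 3 and 4. Gbp3 is highest on the 3 Ptn_VP64 arrays left.

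Other genes of the pathway were read from 8 lists, beside 3 lists of cell type markers, and the planned test called no gene of these in any of the 6 comparisons. Among 53 further interferon targets with a probe, 17 were well above background on at least 12 arrays and 9 on none. Of the 32 tested, the unaveraged patch-corrected fit called 3 between Ptn_VP64 and EGFP, beside 3.4% of all genes: Gbp3, Gbp7 and Dtx3l. Gbp3 and Gbp7 are guanylate-binding GTPases like Gbp2, and Dtx3l is a ubiquitin ligase of the DNA damage response.
Gbp3 had patch-corrected values of -1.38, -2.34 and -2.59 on EGFP and 0.89, 1.22 and 0.29 on Ptn_VP64. It had -1.50 and -2.32 on Ptn_DEL and -1.41, -1.40 and -2.08 on Ptn_Delta. The 3 Ptn_VP64 values left stood above all others, by 2.91 ± 0.36 over EGFP, 2.43 ± 0.36 over Ptn_Delta and 2.54 ± 0.42 over Ptn_DEL (adjusted p of 0.00507, 0.0295 and 0.0363, limma, unaveraged). Patch correction left out Ptn_VP64 replicate 2, which read -2.63 before correction, was not well above background and lay within the range of the other groups. No EGFP array was well above background for Gbp3, so the first of these measures no fold. Gbp7 had -4.23, -3.85, -4.31 and -4.84 on EGFP and -3.18, -1.16 and -1.36 on Ptn_VP64, with a fitted difference of 2.30 ± 0.51 (adjusted p of 0.0373), and it too gave no signal on any EGFP array. Dtx3l, named after its value was seen, had a difference of -0.83 ± 0.18 (adjusted p of 0.0303). All 3 had adjusted p of 1 in the planned test.
The ligands, receptors, kinases and cytokines in the next sentences were named for their role after their values were seen. The interferon genes Ifnb1, Ifna1, Ifna2, Ifna4 and Ifng were well above background on no array, Ifnk and Ifne on 1 each, Ifna5 on 3 and Ifnl3 on 5. The receptor genes Ifnar1, Ifnar2, Ifngr1, Ifngr2 and Ifnlr1 were on 12 of 14, 11 of 15, 11 of 13, 12 of 16 and 12 of 15 arrays read. The kinase genes Jak1, Tyk2 and Jak2 were on 12 of 13, 11 of 14 and 9 of 16. Of 15 negative regulators of cytokine and sensor signalling, 9 were well above background on at least 12 arrays, with Socs1 on 13 and Ptpn6 on 13. Of 19 NF-kB and inflammation genes, 7 were on at least 12 arrays and 6 on none, among the latter Tnf, Il6, Il1b and Cxcl1. Of 17 other sensing genes 7 were on at least 12 and 5 on none, with Aim2 and Trex1 on 12 and 13. Of 22 other Toll signalling genes, 4 were on at least 12 and 8 on none. Of 10 RNA interference genes 5 were on at least 12, with Ago1 on 12 and Drosha on 14, while Prkra was on all 11 arrays read. Of 12 other Irf and Stat genes 4 were on at least 12. Fibroblast markers were on at least 12 arrays for 1 of 10. Their summed signal over the 75th percentile was 1.02 to 3.96 on EGFP, 2.71 to 8.03 on Ptn_VP64, 1.38 to 3.78 on Ptn_DEL and 1.86 to 7.46 on Ptn_Delta. All 5 tested fibroblast markers were higher on Ptn_VP64 than on EGFP in the planned fit, with a median difference of 1.24. On Ptn_DEL and on Ptn_Delta 4 of 5 were higher than on EGFP, with medians of 0.479 and 1.29. The markers with lower means on Ptn_VP64 were each well above background on 0 or 1 array. The part of such cells in the Gbp differences was not tested. For the 9 macrophage markers the summed signal was 2.07 to 10.4 on EGFP, 0.399 to 4.24 on Ptn_VP64, 2.06 to 41.3 on Ptn_DEL and 1.09 to 5.72 on Ptn_Delta.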

How the data were processed

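RNA from 16 samples of transfected mouse ES cells was measured on single-colour Agilent arrays. The images were read with Agilent Feature Extraction 11.5.1.1, and the deposited files give every spot a processed intensity after background subtraction and spatial detrending, without scaling between arrays (per the file headers). The array design is annotated on mm9. The series table that the authors deposited holds log2 values whose sorted columns are identical over all its rows (median 6.304 in each of the 16, differences under 1e-06), and it served only as an alternative.

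From these, 59305 non-control spots per array were used, for 55681 probes, 27656 of which had exactly 1 gene symbol through a RefSeq accession. Signals were divided by the 75th percentile of each array and put on the log2 scale. Spots marked as non-uniform or population outliers were left out, spots of a probe averaged, and the probe with the highest mean among those well above background on at least 4 arrays stood for its gene. An array counts as well above background when at least 50% of a probe's unmarked spots do. limma 3.58.1 (R 4.3.3) was run on arrays averaged in each of 3 pairings, as given in the report, with 2-sided p-values. Patch correction took the median difference from the 16-array median in windows of 21 by 21 spots, subtracted it, dropped spots whose local shift lay more than 1 log2 unit from that of their array, and kept genes with at least 2 arrays in every group (11017 genes). The scripts were tested on simulated data.

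The members, gene lists and tests were chosen with earlier results of these data known. Values on every array are given for members well above background on at least 12 arrays and for the 3 members with the smallest p in each comparison, and from each list at most the 4 genes with the smallest F test p are named, apart from those said to be chosen later. Promoter sequences come from RefSeq (GRCm38.p6). Other normalizations, filters, slide terms and probe rules were tried, and each array was left out in turn. The number of arrays limits the precision of every value.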

Additional observations from a re-analysis of the deposited data

Results flagged for a closer look

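In 3 of 80 sets of 4 arrays a single array stood far from its group by Dixon's test, which chance alone gives in about 1 of 20 sets. Isg15 read 0.05 on Ptn_Delta replicate 1 and -1.65 to -1.42 on the other Ptn_Delta arrays. Its local shift there was 1.36, and its patch-corrected value was -1.30. Isg20 read -4.76 on Ptn_Delta replicate 1 and -2.20 to -2.02 on the others, at a local shift of -3.91. Cxcl10 read -4.07 on Ptn_VP64 replicate 2 and -1.86 to -1.45 on the others, at a local shift of -2.29. The last 2 spots were left out by patch correction, and all 3 arrays are on slide 1.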

How the results depend on the processing

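The planned test called 0 members in every comparison and in the F test, and so did every alternative and every fit without 1 array (0 to 0 members each), except the unaveraged patch-corrected fit. Since Ptn, at a difference of 4.87, was not called by the planned test either, these counts of 0 say nothing about stability. That fit called 5 members for Ptn_VP64 against EGFP, 1 for Ptn_VP64 against Ptn_Delta, 1 for Ptn_VP64 against Ptn_DEL and 1 in the F test. Over all genes it called 375, 79 and 96 in these comparisons and 139 in the F test, 8 for Ptn_DEL against EGFP, 3 for Ptn_Delta against EGFP and 0 for Ptn_DEL against Ptn_Delta, where the planned test called 0 in each. With patch correction, Tbk1 for Ptn_DEL minus Ptn_Delta turned to -0.0002 in the planned averaging, -0.21 unaveraged and -0.066 on slide 2 alone, and without correction to -0.10 on slide 2 alone. Mavs in that comparison turned to -0.25 (corrected) and -0.14 (uncorrected) on slide 2 alone. Ddx58 for Ptn_Delta minus EGFP turned to -0.25 on slide 2 alone with correction. The cause was not tested. The 2 settings on slide 2 alone and the count with marked spots kept were added after seeing the data. Deviations of same-numbered arrays correlated at -0.0659 to 0.465, which does not show that the numbers pair samples, and 11 of 16 arrays correlated best with their own number. With the replicate block 0 members were called. Signal over background limits what these arrays can show for the 8 members without a signal.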
